A study of Mus musculus with 12 samples.

Results

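Dentate granule cells are the principal neurons of the dentate gyrus. They receive cortical input through the perforant path and send mossy fibers to the pyramidal cells of area CA3, and new granule cells are added in adult life. Among genes known from these cells, 7 were followed here: C1ql2, Calb1, Dsp, Prox1, Stxbp6, Tdo2 and Trpc6. The choice does not mean that other forebrain neurons lack them. Every probe annotated with 1 of these symbols was taken, which gave 8 probes of 25697 on the array and 7 genes of 18097. Prox1 has 2 probes and the other genes have 1 each.

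The arrays were hybridized with RNA from the hippocampus, which contains the dentate gyrus, and from the cortex, which does not. All mice were male 3×TgAD, an Alzheimer's disease model that carries mutant human amyloid precursor protein and tau transgenes together with a mutant presenilin 1 knock-in. They took amitriptyline hydrochloride (AMI), a tricyclic antidepressant, at 100 µg per g of body weight in the drinking water for 4 months from an age of 14 months, or vehicle alone, and were 18 months old at the end. Both treatments were combined with injections of BrdU, a label for dividing cells, and no mice without the transgenes are among these arrays. Vehicle hippocampus, AMI hippocampus, vehicle cortex and AMI cortex had 3 arrays each, 12 in all.

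Prox1 encodes the homeobox transcription factor that sets and maintains granule cell identity. C1ql2 encodes a secreted C1q-domain protein of mossy fiber synapses, where it and C1ql3 bind kainate receptors and neurexin 3. Dsp encodes desmoplakin, which ties desmosomes to intermediate filaments, Calb1 the calcium buffer calbindin, Stxbp6 the SNARE-binding protein amisyn, Tdo2 the tryptophan dioxygenase at the entry of the kynurenine pathway, and Trpc6 a cation channel opened by diacylglycerol.

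Each probe is a 50-base sequence that reports 1 stretch of a transcript, so its position sets what the signal can show. The probes of Dsp and Trpc6 are printed in the direction of the transcript because Dsp is the member detected in 1 tissue alone and the Trpc6 probe crosses an exon junction. The array annotation, which does not name its genome build, places the Dsp probe at chr13:38289737-38289786 on the plus strand. It places the Trpc6 probe on the plus strand in 2 blocks, chr9:8679497-8679543 and chr9:8680414-8680416, and the final 3 bases, which lie in the next exon, are in capitals. Both sequences have a reading frame free of stop codons.
Dsp: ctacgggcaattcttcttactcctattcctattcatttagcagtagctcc
Trpc6: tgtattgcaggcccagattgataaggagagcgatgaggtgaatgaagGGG

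The Prox1 probes start at bases 3356 (ILMN_2598766, called the proximal probe here, chr1:191946387-191946436, minus strand) and 4007 (ILMN_2894355, the distal probe, chr1:191945736-191945785, minus strand) of the same transcript. The C1ql2 probe (ILMN_2671473) lies at chr1:122239674-122239723 on the plus strand. The probes of Stxbp6 (chr12:45725617-45725666) and Tdo2 (chr3:81762546-81762595) lie on the minus strand, and the Calb1 probe is annotated only to cytoband 4qA2.

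The sequences before the transcription starts of C1ql2 and Prox1 are shown because these detected members have matches to the E-box, the letters CANNTG, which basic helix-loop-helix factors such as NeuroD1 bind. They are the 250 bases before a RefSeq start in GRCm38.p6, at chr1:120340332-120340581 on the plus strand for C1ql2 and at chr1:190170828-190171077 on the minus strand for 1 of the 2 Prox1 starts. Capitals mark each CANNTG.
C1ql2: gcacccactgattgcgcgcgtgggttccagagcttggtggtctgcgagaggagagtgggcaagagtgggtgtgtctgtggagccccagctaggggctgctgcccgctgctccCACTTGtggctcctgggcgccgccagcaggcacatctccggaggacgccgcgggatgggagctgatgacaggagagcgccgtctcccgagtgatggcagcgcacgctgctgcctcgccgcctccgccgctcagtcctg
Prox1: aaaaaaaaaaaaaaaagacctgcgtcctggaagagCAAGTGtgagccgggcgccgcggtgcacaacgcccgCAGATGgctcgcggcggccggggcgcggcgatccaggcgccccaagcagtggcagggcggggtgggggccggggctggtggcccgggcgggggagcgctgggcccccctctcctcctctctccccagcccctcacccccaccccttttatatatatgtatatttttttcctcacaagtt

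CANNTG, which reads the same on both strands, was present in 3 of the 7 windows of the 6 members with a RefSeq start sequence, against 66.2% of 32851 windows of the same length. The form CAGATG, searched on both strands, was found in 1 of the 7 windows and in 14.4% of all windows. Neither the form CAGCTG nor the cyclic AMP response element TGACGTCA was found in the 7 windows, against 13.0% and 1.55% of all windows. A match describes the letters alone.

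Detection divided the 7 genes. A probe was called detected where its detection p-value, the share of negative control beads at least as bright, was 0.05 or less. The probes of C1ql2, Trpc6 and the proximal Prox1 probe were detected on all 12 arrays. Dsp was detected on all 6 hippocampal and on none of the 6 cortical arrays. The distal Prox1 probe was detected on 1 array, vehicle hippocampus replicate 1, and the probes of Calb1, Stxbp6 and Tdo2 on none. Of all probes on the array, 51.2% were detected on 3 or more hippocampal arrays, as were 4 of the 8 member probes.

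A few facts of the arrays bear on these values. Between 12588 and 13280 probes were detected per array. The hippocampal and the cortical signals were deposited in separate tables exported by different software, so a difference between the tissues and a difference between those exports cannot be told apart. Vehicle hippocampus replicate 3 stood apart in 9 choroid plexus genes, with a mean normalized log2 signal of 2.26 against -0.19 to 0.07 on the other 5 hippocampal arrays. The cortical arrays were uneven in these genes too, with means from -0.37 to 1.20. A set of 6 genes of the striatum, a region under the cortex, was higher on every cortical array, with a mean of 0.98 to 1.43 against -0.18 to 0.18 in the hippocampus. The sources used here do not tie samples to single mice, so the p-values measure the spread between arrays, which may be partly technical.

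C1ql2 had the largest tissue difference of the 7 genes. Its signal was 2344, 1999 and 2967 in replicates 1, 2 and 3 of vehicle hippocampus and 1882, 3902 and 2642 in those of AMI hippocampus. In the cortex it was 291, 209.8 and 234 with vehicle and 212, 318 and 185 with AMI. The dimmest hippocampal array was thus several-fold brighter than the brightest cortical array.

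For comparisons, signals were placed on a normalized log2 scale on which 0 is the mean of all probes of an array and all arrays have a common SD. On this scale C1ql2 was at 4.00 ± 0.40 in the hippocampus and 0.78 ± 0.20 in the cortex (SD, n = 6 arrays each). The difference of 3.22 (SE 0.16, 95% confidence interval 2.88 to 3.57) is 9.34-fold and had an adjusted p of 2.25e-08 in limma. By p-value it ranked 28 among the 25697 probes.

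Prox1 was also higher in the hippocampus. Its proximal probe gave signals of 317, 290.2 and 341 in vehicle hippocampus and of 232, 548 and 375 in AMI hippocampus. In the cortex the signals were 159, 118 and 136 with vehicle and 158, 213 and 124 with AMI, all under the lowest hippocampal value. The normalized log2 levels were 1.22 ± 0.23 and 0.05 ± 0.19 (SD, n = 6 each), a difference of 1.17 (SE 0.11, interval 0.94 to 1.40), or 2.25-fold, with a limma adjusted p of 4.09e-06.

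The distal Prox1 probe gave signals of 51.8 to 79.0 in the hippocampus and 58.5 to 69.1 in the cortex. Its normalized levels were higher on all 6 hippocampal arrays (limma adjusted p = 0.0225), but with detection on 1 array of 12 no fold is given. The 2 probes of Prox1 thus differed in detection, on 12 arrays and on 1.

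Dsp was seen in the hippocampus alone. Its signal was 146, 102 and 172 in vehicle hippocampus and 96.9, 197 and 138 in AMI hippocampus. In the cortex it was 70.1, 63.4 and 59.9 with vehicle and 72.0, 69.4 and 73.1 with AMI, which are the signals of probes at background. Set against the lowest signal that counted as detected on each cortical array, Dsp was at least 1.67-fold higher in the hippocampus (limma adjusted p = 2.18e-05). The measured normalized means were -0.0046 ± 0.30 and -1.13 ± 0.14 (SD, n = 6 each).

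Trpc6 showed a small tissue difference. The signals were 158, 156 and 172 in vehicle hippocampus, 141, 197 and 202 in AMI hippocampus, 136, 115 and 110.2 in vehicle cortex, and 126, 163 and 109.6 in AMI cortex. The raw signals of the tissues overlapped, whereas the normalized levels did not, with a lowest hippocampal value of 0.03 and a highest cortical value of -0.07. The difference was 0.49 (SE 0.075, interval 0.33 to 0.65), or 1.40-fold, with a limma adjusted p of 3.39e-04.

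Calb1, Stxbp6 and Tdo2 stayed at the level of undetected probes in both tissues. The signal of Calb1 ranged from 43.1 to 56.5 in the hippocampus and from 56.7 to 65.0 in the cortex, that of Stxbp6 from 50.3 to 62.1 and from 57.1 to 67.9, and that of Tdo2 from 50.5 to 59.0 and from 59.7 to 70.3. The median signal of undetected probes was itself lower in the hippocampus, at 52.2 to 63.3 against 65.1 to 73.2 in the cortex. On the normalized scale the tissues overlapped for each of these genes. No fold is given for these genes. The array's probes of Gad2 and Snap25, which many neurons use and which were picked after their values were seen, were undetected on all 12 arrays as well, so a probe at background does not show that the gene is silent.

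**Figure D1:**
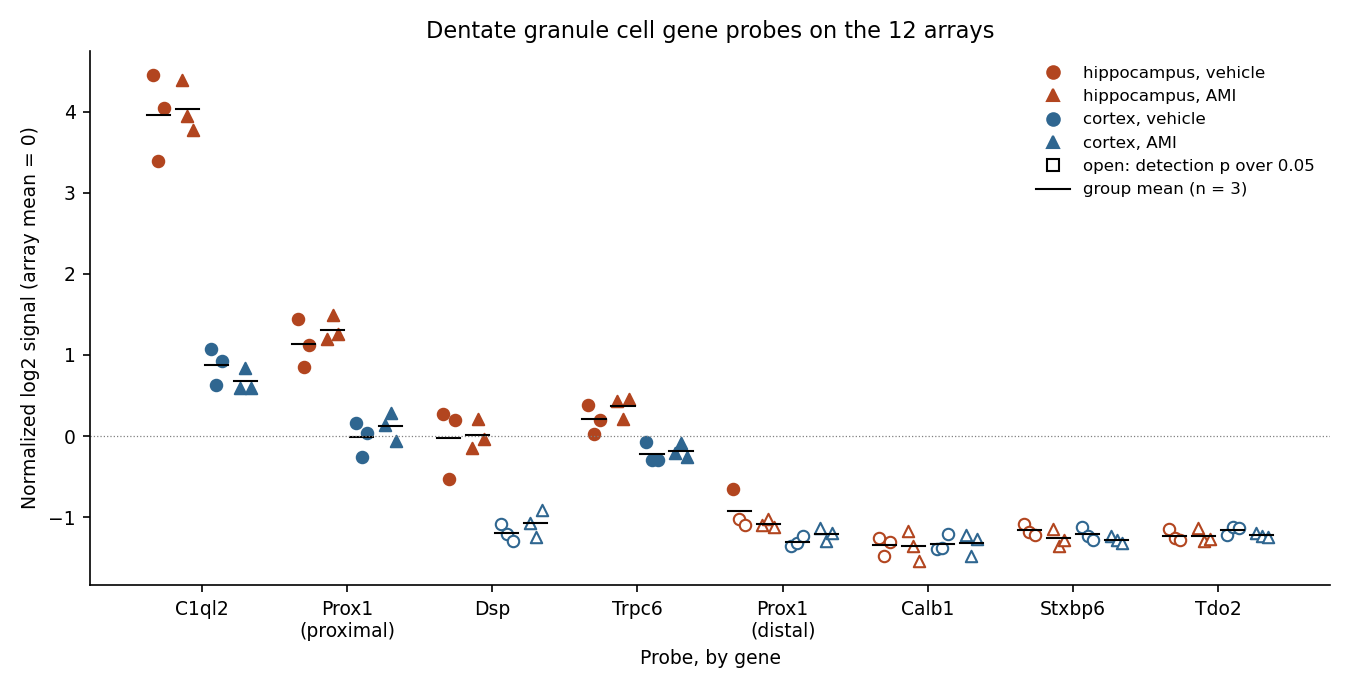
Normalized log2 signal (0 is the array mean) of the 8 probes on the 12 arrays, with hippocampus in red, cortex in blue, vehicle as circles, AMI as triangles, open symbols for a detection p over 0.05 and black bars for the mean of 3 arrays. The hippocampal points lie above the cortical points for C1ql2, the proximal Prox1 probe, Dsp and Trpc6, and the probes of Calb1, Stxbp6 and Tdo2 are open throughout.

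In sum over genes, 4 of the 7 passed an adjusted p of 0.05 as higher in the hippocampus by their brightest probe, and none as lower. Of all probes on the array 13.1% passed as higher and 10.6% as lower, and among probes detected on 3 or more arrays of either tissue 23.4% and 17.9% did. The median difference of the 7 genes was 0.49, against -0.02 over all probes. Groups that do not overlap in the hippocampal direction were found for 7.40% of all probes and for 5 of the 8 member probes. With arrays centred on their median instead, 4329 probes were called higher and 981 lower, against 3357 and 2724 with the scaling used here, and the 4 genes were called in both. The RNA is from whole tissue pieces, in which fewer cells of a type and less RNA per cell cannot be told apart.

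The tissue difference was then taken within each treatment. In vehicle mice it was 3.09 for C1ql2, 1.15 for Prox1 and 0.43 for Trpc6, with limma adjusted p-values of 2.54e-06, 2.22e-04 and 0.0165, and Dsp was at least 1.67-fold higher (adjusted p = 6.51e-04). In AMI mice it was 3.36, 1.19 and 0.55, with adjusted p-values of 1.30e-06, 1.90e-04 and 0.00381, and Dsp was at least 1.67-fold higher (adjusted p = 0.00118). By their brightest probe the 4 genes passed in both treatments, where 7.48% and 7.64% of all probes passed as higher. The distal Prox1 probe passed in vehicle mice (limma adjusted p = 0.0291) but not in AMI mice (adjusted p = 0.524). For Trpc6 in vehicle mice the call did not hold with quantile normalization (0.36, adjusted p = 0.0813) or after background correction by neqc (0.55, adjusted p = 0.0967), nor without vehicle hippocampus replicate 1 (0.34, adjusted p = 0.0710) or vehicle cortex replicates 2 (0.39, adjusted p = 0.0615) or 3 (0.39, adjusted p = 0.0554).

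**Figure D2:**
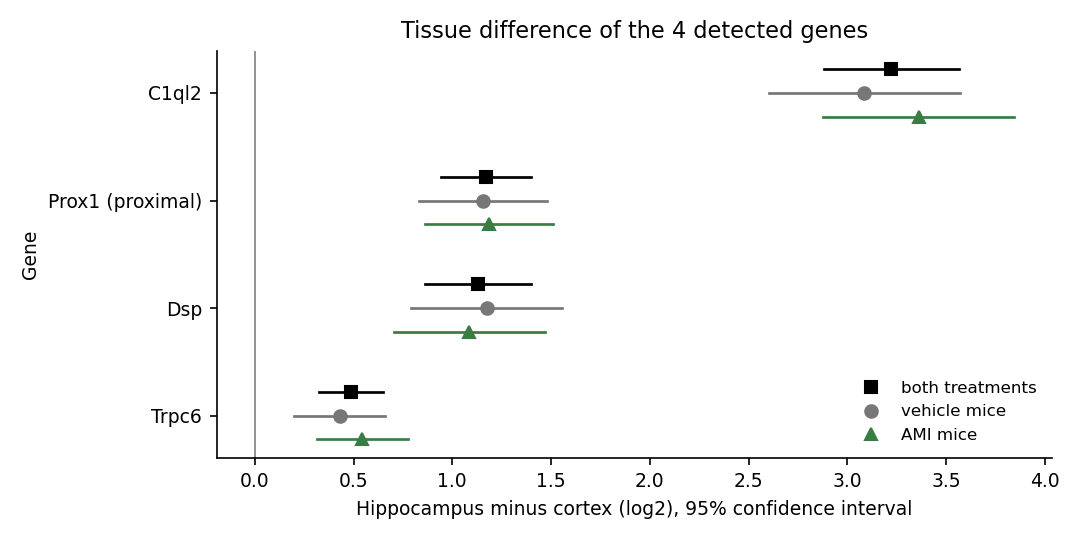
Difference between hippocampus and cortex on the normalized log2 scale, with 95% confidence intervals from limma, for the 4 detected genes over both treatments (black), in vehicle mice (grey) and in AMI mice (green). All intervals lie above 0, and those of the 2 treatments overlap for each gene. For Dsp, undetected in the cortex, the plotted value is the fitted one and not the bound.

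Whether AMI changed these genes was asked within each tissue. None of the 4 genes tested in the hippocampus passed, and neither did any of the 13163 probes tested there (0%, with 2.35% at an unadjusted p under 0.05 and 8.08% with the replicate number as a block, none of them a member in either fit). C1ql2 was at 3.96 ± 0.54 with vehicle and 4.04 ± 0.32 with AMI (SD, n = 3 arrays each), a difference of 0.08 (SE 0.26) with a 95% interval of -0.52 to 0.67. Prox1 differed by 0.17 (SE 0.16, interval -0.18 to 0.53), Trpc6 by 0.16 (SE 0.12, interval -0.12 to 0.44) and Dsp by 0.03 (SE 0.21, interval -0.44 to 0.50), each with a limma adjusted p of 0.9996. Between arrays of the same number, AMI less vehicle was 0.04, 0.18 and 0.26 for Trpc6 (limma adjusted p = 0.647 with the block), while C1ql2, Prox1 and Dsp had differences of both signs. Values of the treatments overlapped for all 4 genes, as they did for all but 7.89% of the probes tested.

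Among the hippocampal arrays, vehicle replicate 2 had the lowest normalized value of all 4 genes, at 3.39 for C1ql2, 0.85 for Prox1, -0.53 for Dsp and 0.03 for Trpc6. Without that array the AMI difference became -0.21 for C1ql2 and -0.23 for Dsp. Leaving out an AMI array instead also turned the sign of each, so these signs do not rest on vehicle replicate 2 alone. Vehicle replicate 3, the array rich in choroid plexus transcripts, lay inside the range of the other hippocampal arrays for all 4 genes, with 4.04 for C1ql2 and 1.13 for Prox1. The mean level of 6 oligodendrocyte genes was 3.76 to 4.24 on the vehicle and 3.41 to 3.79 on the AMI arrays of the hippocampus, with a median AMI difference of -0.47 and 3 of the 6 at an unadjusted p under 0.05 but none passing, and its part in the members' values was not tested.

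In the cortex the 3 genes tested did not pass either, as did none of 12944 probes (0%, with 6.28% at an unadjusted p under 0.05, none of them a member). C1ql2 was at 0.88 ± 0.23 with vehicle and 0.67 ± 0.14 with AMI (SD, n = 3 each), a difference of -0.20 (SE 0.14, interval -0.51 to 0.11, limma adjusted p = 0.857). Prox1 differed by 0.14 (SE 0.14, interval -0.17 to 0.45, adjusted p = 0.909) and Trpc6 by 0.04 (SE 0.10, interval -0.20 to 0.28, adjusted p = 0.967). Again the values of the treatments overlapped for every gene, whereas 12.2% of the probes tested had treatments that did not overlap. Dsp was not tested in the cortex because it was undetected there. The mean level of 6 striatal genes was 1.31 to 1.43 on the vehicle and 0.98 to 1.17 on the AMI arrays of the cortex, without overlap, although none of the 5 tested passed, and its part in these values and in the comparison of the tissues' AMI effects was not tested.

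The AMI effect in the hippocampus less that in the cortex was 0.28 for C1ql2 (SE 0.33, interval -0.43 to 0.98), 0.12 for Trpc6 (SE 0.16) and 0.03 for Prox1 (SE 0.22), with limma adjusted p-values of 0.9999. No probe of 12430 passed (0%, 3.03% unadjusted). The intervals of the AMI effect in the hippocampus leave room for changes from -0.52 to 0.67 in C1ql2 and from -0.18 to 0.53 in Prox1. With 3 arrays per treatment, changes of that size could not be resolved.

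**Figure D3:**
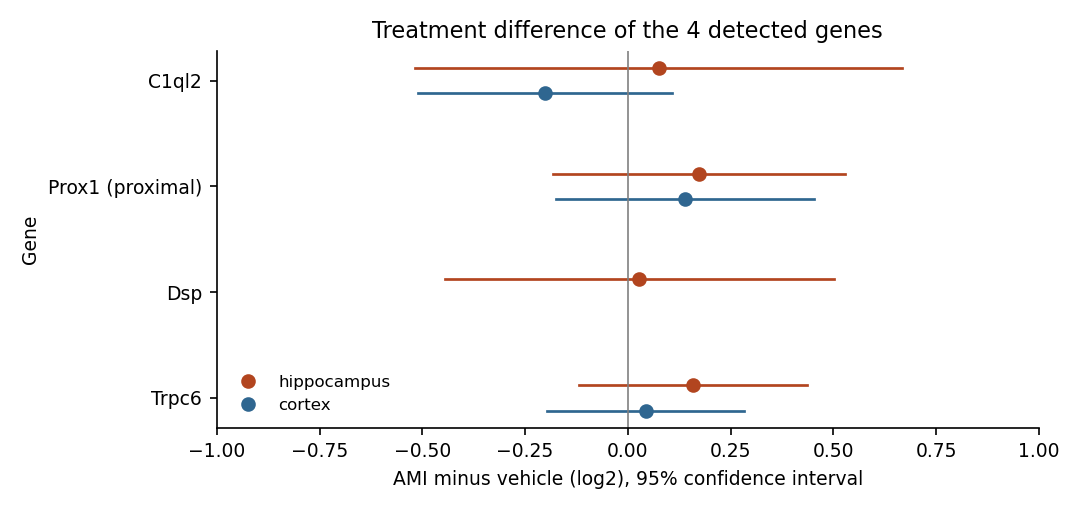
Difference between AMI and vehicle on the normalized log2 scale, with 95% confidence intervals from limma, in the hippocampus (red) and the cortex (blue). Every interval includes 0, and Dsp has no cortical value because it was undetected there.

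Other genes known from granule cells did not all follow the 7 members. Of 11 on a list of them, 5 are matched on the array, and 2 were higher and 2 lower in the hippocampus. Within vehicle mice, and likewise within AMI mice, 2 passed as higher and 1 as lower. Il16, a cytokine precursor with a neuronal form, was detected on 6 hippocampal arrays and on 1 of 6 cortical arrays, with hippocampal values from 1.02 to 1.37 and cortical values from -0.92 to -0.72 (limma adjusted p = 7.70e-10). Sema5a, which encodes an axon guidance protein, was 2.94-fold higher on average (adjusted p = 8.67e-04), yet its hippocampal arrays ran from 1.81 to 3.85 and met the cortical range of 1.16 to 1.85. Akap7, an anchor of protein kinase A, was 1.55-fold lower in the hippocampus (adjusted p = 7.58e-06), and Ablim3, detected on 1 hippocampal and 5 cortical arrays, passed as lower (adjusted p = 0.0126). C1ql3, detected on 4 of the 6 cortical arrays, differed by 0.12 (adjusted p = 0.200).

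Genes of immature granule cells and their progenitors gave 1 gene higher and 2 lower of 6 on the array. Within vehicle mice, and likewise within AMI mice, 0 passed as higher and 1 as lower. Dcx, a microtubule protein of migrating neurons, was 1.59-fold lower in the hippocampus (limma adjusted p = 1.25e-05). Neurod1, a factor of granule cell differentiation, passed as higher with detection on 1 array of 12, and Igfbpl1 passed as lower with detection on none, so neither has a fold.

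The partners of each member were counted next. Of 7 genes of the C1q-like family and its synaptic partners, Grik4, a kainate receptor subunit, was 1.93-fold higher in the hippocampus (limma adjusted p = 2.33e-07). No other passed over both treatments, and within AMI mice 2 of the 7 passed as higher. Nrxn3, neurexin 3, differed by 0.33 with an adjusted p of 0.0548. C1ql1 and C1ql4 were undetected on all arrays.

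Of 5 desmosome partners of Dsp on the array, only Pkp2, plakophilin 2, passed. It was at 2.39 in the hippocampus and 0.08 in the cortex, 4.94-fold apart (limma adjusted p = 7.70e-10), with arrays from 2.27 to 2.64 and from -0.04 to 0.24. The desmosomal cadherin Dsc2 and the plakoglobin gene Jup were undetected on all 12 arrays, and Dsg2 differed by -0.06 (adjusted p = 0.555).

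Of the 5 other TRPC channel subunits reported here, 2 were higher in the hippocampus over both treatments, and 1 passed within each treatment. Trpc4 was 3.03-fold higher (limma adjusted p = 3.96e-08), with hippocampal arrays from 0.96 to 1.22 and cortical arrays from -0.73 to -0.26, and Trpc5, detected on 4 of 6 cortical arrays, passed as higher (adjusted p = 0.0381). Trpc7, which like Trpc6 is opened by diacylglycerol, differed by 0.02 (adjusted p = 0.871).

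Of 5 calcium-binding relatives of calbindin, the hippocalcin gene Hpca (2.04-fold, limma adjusted p = 4.88e-05) and S100b (adjusted p = 4.40e-04, detected on 4 of 6 cortical arrays) were higher in the hippocampus, and Ncald (-0.76, adjusted p = 1.07e-05) and Pvalb were lower. Within each treatment 2 of these relatives passed as higher and 1 as lower. Of 4 SNARE partners of Stxbp6 on the array 2 were lower in the hippocampus. These were Stx1a (3.00-fold, limma adjusted p = 1.07e-06) and Vamp2 (-0.36, adjusted p = 0.0251), and within each treatment 1 SNARE partner passed as lower. None of 5 kynurenine pathway genes on the array passed, and 4 of them were undetected on all 12 arrays, as Tdo2 was. No gene of these lists passed for AMI in either tissue.

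Markers of other cells and regions moved with tissue too, and their part in the differences of the members was not tested. The counts are over both treatments. In several lists fewer genes passed within vehicle or AMI mice, and of the thalamic genes more passed as lower in vehicle mice. Within vehicle and AMI mice, 3 and 4 neocortical layer genes passed as lower, and 3 and 1 microglial genes as higher. Of 10 genes of CA pyramidal cells 7 were higher in the hippocampus and 3 lower, with Fibcd1 6.75-fold, Amigo2 2.47-fold and Grik4 1.93-fold higher (limma adjusted p-values of 8.26e-10, 3.44e-07 and 2.33e-07). Of 10 neocortical layer genes 6 were lower in the hippocampus, among them Ctgf (-1.61) and Rorb (-0.37), and 2 were higher, among them Fezf2 (0.81) (adjusted p = 1.89e-06, 4.51e-04 and 4.82e-05). All 6 striatal genes on the array were lower in the hippocampus, with differences of -2.49 for Ppp1r1b, -2.22 for Rgs9 and -1.34 for Drd1a.

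Of 5 thalamic genes Slc17a6 was lower in the hippocampus (-1.16), Lhx2 was higher (0.36) and Lhx9, undetected in the cortex, was at least 1.27-fold higher. In vehicle mice 1 thalamic gene passed as higher and 2 as lower, and in AMI mice 1 and 1. Of 7 interneuron genes 3 (Vip, Slc32a1 and Pvalb) and 4 of 6 oligodendrocyte genes (Mag, Cnp, Mog and Mobp) were lower in the hippocampus and none higher, but within treatments 0 of the 6 oligodendrocyte genes passed in vehicle mice and 3 in AMI mice. Of 5 astrocyte genes Gfap was 3.42-fold higher and Aqp4 lower (-0.39). Of 6 microglial genes 4 were higher, by 0.76 for Csf1r, 0.48 for C1qa and 0.43 for Aif1. None of 9 choroid plexus genes passed.

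**Figure D4:**
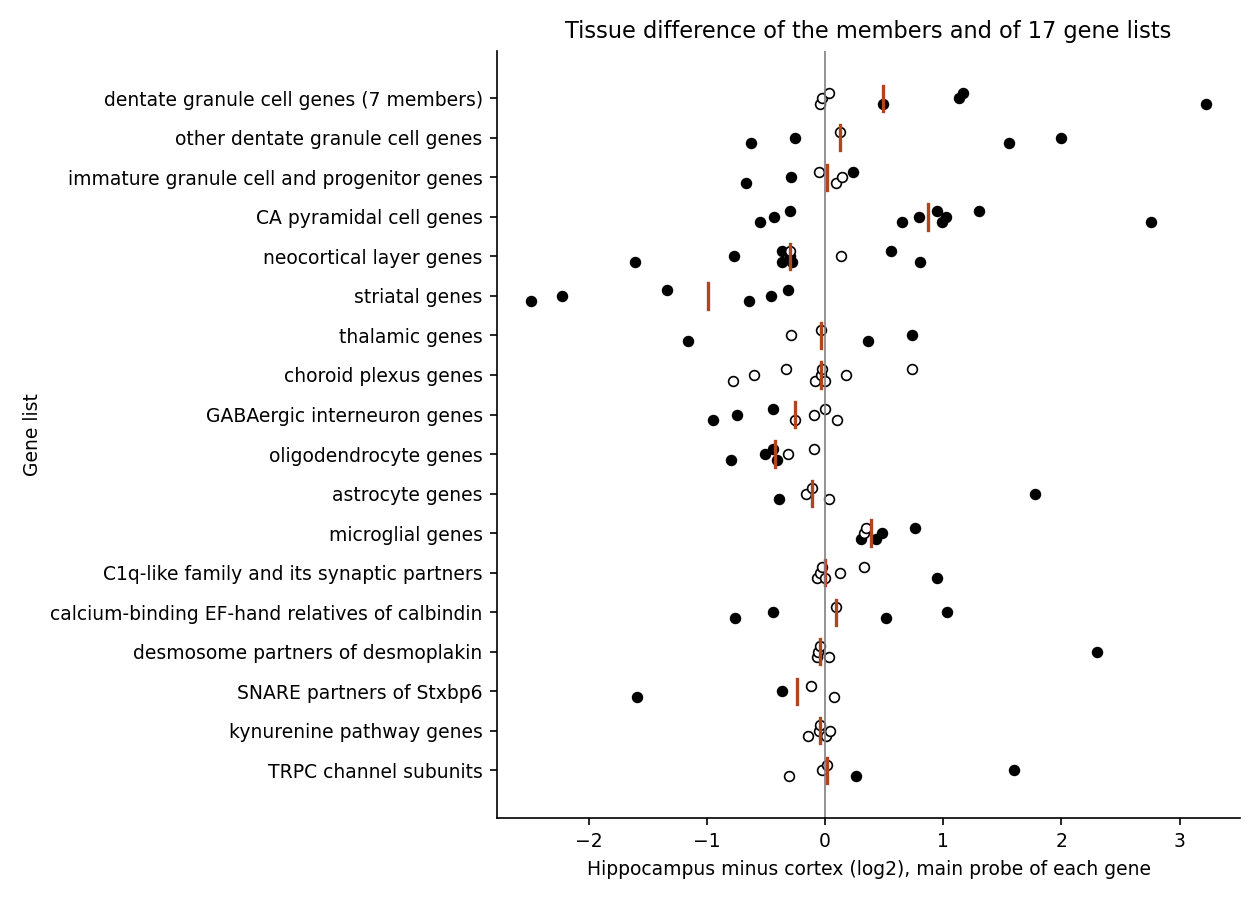
Difference between hippocampus and cortex on the normalized log2 scale for the brightest probe of each gene, by gene list, with filled points for a limma adjusted p under 0.05 and a red bar at the median of the list. The members have their median at 0.49, the CA pyramidal cell genes at 0.87 and the striatal genes at -0.99.

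The genes whose profile over the 12 arrays lay closest to the mean profile of the 7 members were Sec14l2, 2810453I06Rik, Gtl3, D130059P03Rik and Aph1b, with root mean square distances of 0.0992 to 0.114 on the log2 scale after each gene was centred on its own mean. The mean member profile was between 0.16 and 0.62 on the hippocampal arrays and between -0.51 and -0.34 on the cortical arrays. That mean includes Calb1, Stxbp6 and Tdo2, which were undetected on every array, so it is not the profile of any single member. The named genes differed by 0.76 to 0.86 between the tissues, against 3.22 for C1ql2 and 0.49 for Trpc6. This likeness is a description over 12 arrays that share 2 tissues.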

How the data were processed

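Illumina MouseRef-8 arrays were hybridized with RNA from hippocampus and cortex (6 arrays each). The deposited values are bead-averaged intensities on a linear scale, neither normalized nor background-subtracted, each beside a deposited detection p-value. Per the submitters' processing notes BeadStudio 3.4 and GenomeStudio 1.1.1 were used, and the headers name a different one of them for each tissue. Here log2 signals were centred on the array mean, divided by the array SD (z normalization, after the study's methods) and rescaled by the SD averaged over the 12 arrays. No probe was filtered from the tissue comparisons. AMI was tested within a tissue on probes detected on 3 or more of its 6 arrays, and the interaction on probes that passed in both. All tests were two-sided, from limma 3.58.1 in R 4.3.3 (lmFit, eBayes) with Benjamini-Hochberg adjustment over all probes tested and a threshold of 0.05. They were run on simulated arrays with independent noise for each probe, which checks the code and not the error rates on these arrays. An exact permutation test of 3 against 3 arrays cannot go below 0.10. Python 3.11.15 drew the figures.

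A gene was represented by its brightest probe. All 7 members are named with every probe, from each list up to 3 genes with the smallest adjusted p in the tissue difference (and others where a count is spelled out), and the 5 genes most alike. The members and the 17 lists were chosen with earlier results of these data known, and some genes of these lists are not reported here. A bound for a gene undetected in a tissue uses, per array, the higher of its own level and the lowest detected level. Arrays of 1 number were compared by the correlation of their deviations from the group means. It was 0.61, 0.30 and 0.29 between AMI and vehicle hippocampus, against -0.47 to 0.28 between arrays of different numbers. Only replicate 1 stood apart, since AMI replicate 3 was nearly as close to vehicle replicate 2 (0.28) as to vehicle replicate 3 (0.29). In the cortex it was -0.06, 0.33 and 0.33, against -0.42 to 0.27. The main fits used no pairing. Promoter sequences are from RefSeq. Alternatives were quantile normalization, median centring, neqc, array weights, a trend with robust variances, a replicate block, other detection filters, the methods' t-test, both tissues in 1 fit, and leaving out each array or, chosen after seeing the data, both hippocampal arrays of replicate 1.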

Additional observations from a re-analysis of the deposited data

How the results depend on the processing

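The calls of C1ql2, Prox1 (proximal probe) and Dsp as higher in the hippocampus held in each setting that tested them, over both treatments and within each. Dsp was not tested where detection on all 12 arrays was required, which left 3 of the 4 genes. After neqc background correction the fitted Dsp difference was 1.91. The Trpc6 call held in all settings over both treatments and in AMI mice. In vehicle mice it was lost with quantile normalization (0.36), with neqc (0.55), without both hippocampal arrays of replicate 1 (0.34) and without vehicle hippocampus replicate 1 or vehicle cortex replicate 2 or 3, and held in the other settings, and the difference ran from 0.34 to 0.52 when 1 array was left out. The number of probes called for tissue was 9234 with array weights against 6081, and 5062 to 6455 with 1 array left out. In vehicle mice it was 2112 with median centring against 3258, and 2279 to 2729 with 1 array left out. In AMI mice it was 7173 with array weights against 3538, and 2131 (without AMI cortex replicate 1) to 3399 with 1 array left out. Without both hippocampal arrays of replicate 1, these 3 counts were 6803, 3168 and 3663, the AMI difference of Dsp in the hippocampus was 0.25 and the interaction of Prox1 was 0.24.

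No member was called for AMI in any setting. Differences near 0 changed sign without passing. In the hippocampus Dsp was at -0.0022 with quantile normalization, and with 1 array left out it ran from -0.23 to 0.17 and C1ql2 from -0.21 to 0.32. These negative values were -0.23 (Dsp) and -0.21 (C1ql2) without vehicle replicate 2, -0.07 (Dsp) without AMI replicate 2 and -0.10 (C1ql2) without AMI replicate 1. In the cortex Trpc6 was at -0.02 with quantile normalization, neqc and array weights (-0.0161, -0.0243 and -0.0246), and from -0.0064 to 0.12 with 1 array left out. The interaction ran from -0.11 to 0.18 for Prox1 and from -0.0099 to 0.52 for C1ql2 with 1 array left out. Of all probes, 0 to 1 were called for AMI in either tissue with 1 array left out (1 in the hippocampus without AMI replicate 2 and 1 in the cortex without AMI replicate 3), and 2 in the cortex with each of neqc, array weights and the trend. The cause of these changes was not tested.

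The replicate block left 5603 probes called for tissue and 0 for AMI in the hippocampus, where 1063 probes had an unadjusted p under 0.05 against 309 without it and C1ql2 had a limma adjusted p of 0.896, and changed no call of a member. Background was not subtracted, which limits folds of dim probes.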
